A study of Mus musculus with 2 samples.

Results

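The genes described here are 10 components of the Hippo signalling pathway: the transcriptional coactivators Yap1 and Wwtr1, the TEAD transcription factors Tead1, Tead2 and Tead3, the kinases Lats1 and Lats2, and the angiomotins Amot, Amotl1 and Amotl2. They were taken by name, as every probe set whose platform annotation gives exactly 1 gene symbol and that symbol is one of the 10. All 10 genes were found, on 11 probe sets, among the 22180 genes named by 23521 such probe sets. Transcripts had been measured on an Affymetrix expression array in 2 samples of stable lines made from the mouse embryonic stem cells that the labels call NIWA ESC. The first line, called fusion cells below, expresses EWS-OCT4A-GFP, a fusion of the RNA-binding protein EWS to the pluripotency factor OCT4A with green fluorescent protein, and the second, the control, called GFP cells, expresses GFP. Both lines were kept in stem cell medium with the cytokine LIF, and both received doxycycline at 1 µg/ml to lower their endogenous OCT4. The sources used here do not give the duration of the treatment, the promoter that drives the transgene, or whether a line is 1 clone. Each group holds 1 sample, so no difference below has a replicate check and no test of the conditions is possible.

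In the Hippo pathway the MST kinases, with the scaffold SAV1, activate the LATS kinases, which work with the MOB1 cofactors. LATS phosphorylates YAP, encoded by Yap1, and TAZ, encoded by Wwtr1, and this keeps both coactivators out of the nucleus. Unphosphorylated YAP and TAZ enter the nucleus and bind TEAD factors on DNA. Angiomotins hold YAP and TAZ at cell junctions and promote their phosphorylation by LATS. In the mouse blastocyst YAP is nuclear in the outer cells that become trophectoderm and cytoplasmic in the inner cells, and mouse embryonic stem cells that lose OCT4 turn towards trophectoderm.

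Transcripts of 9 of the 10 genes were lower in fusion cells than in GFP cells, and 6 of them were at least 2-fold lower. Amot, Tead3 and Wwtr1 showed the largest differences, of 10.5-fold, 8.49-fold and 6.33-fold. Amotl2, Lats1 and Yap1 were the other 3 genes past 2-fold. Tead2, Lats2 and Amotl1 were lower by less than 2-fold, and Tead1 was the 1 gene with the higher value in fusion cells. Here and below, a value is the deposited RMA value of a probe set on the log2 scale, a difference is the value in fusion cells minus that in GFP cells, and a gene is counted as lower or higher when the difference reaches 2-fold and the larger of its values is at least 4.10. That floor is the overall median of the table. All 10 genes lay above this floor in both samples. Among 13516 genes that reached the floor, 11.9% were lower by 2-fold or more, and 9.31% were higher by as much, whereas the 10 members had 6 lower and 0 higher. A difference below 0 of any size was found for 6425 of the 13516 genes, beside 9 of the 10 members. The median difference was -1.02 over the 10 genes and 0.03 over all genes at or above the floor.

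**Figure D1:**
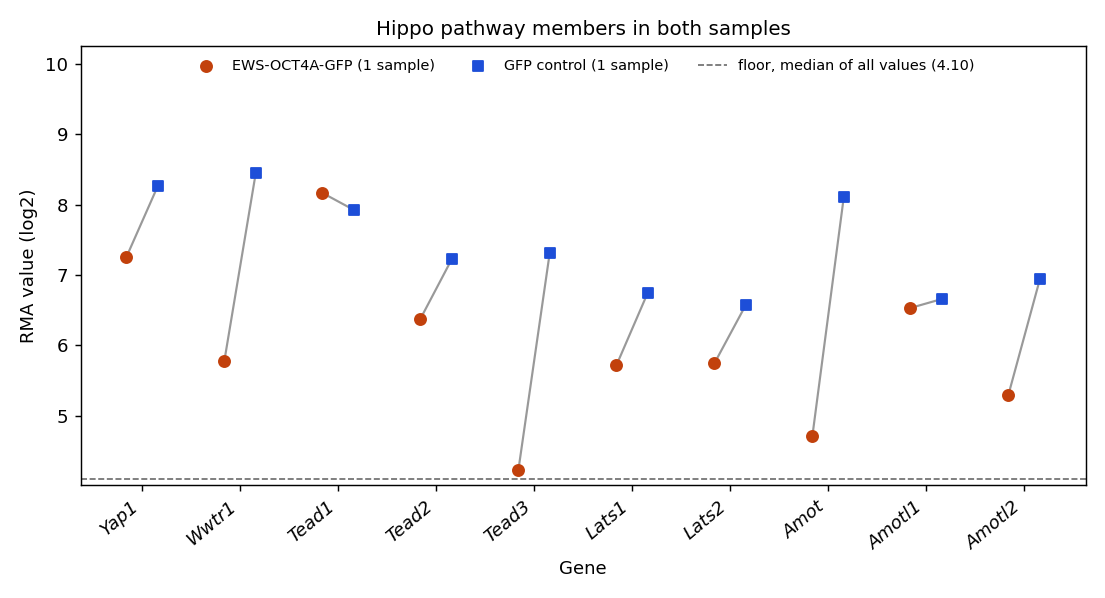
RMA values (log2, vertical axis) of the 10 genes in fusion cells (EWS-OCT4A-GFP, circles) and GFP cells (control, squares), with a line joining the 2 values of a gene and a dashed line at the floor of 4.10. The circle lies below the square for every gene but Tead1, and Tead3 comes closest to the floor, at 4.23 in fusion cells.

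The samples differed widely beyond this pathway, and the members' differences have to be read beside that. Of 10 trophectoderm markers, all 10 had lower values in fusion cells and 8 were at least 2-fold lower. Cdx2 (-0.55) and Elf5 (-0.81) were the ones within 2-fold. The summed level of the 10 on the linear scale was 356 in fusion cells against 5746 in GFP cells, with Elf5 and Hand1 under the floor in fusion cells and none under it in GFP cells. The keratin genes Krt8 (10.99) and Krt18 (10.71) had the highest values of the set in GFP cells and weigh most in that sum. Of 10 stem cell markers, all 10 had higher values in fusion cells, 8 of them by at least 2-fold, with sums of 7026 in fusion cells against 758 in GFP cells. GFP cells, although labelled as stem cells, had Esrrb and Dppa5a under the floor, and Dppa5a was under it in fusion cells too. Of 10 fibroblast markers, which would report feeder cells, only Postn was at least 2-fold lower, and the sums were 178 in fusion cells against 259 in GFP cells. Postn read 2.025 in fusion cells, under the floor, against 6.06 in GFP cells, and was 3.91-fold lower with the lower value set to the floor. Dcn, Lum and Fap lay under the floor in both samples. The part of trophectoderm-like cells in the members' differences was not tested, and fewer cells of a type and less RNA per cell cannot be told apart in bulk RNA. The genes of the fusion itself, Pou5f1 (5.37 in fusion cells against 5.24 in GFP cells) and Ewsr1 (8.46 in fusion cells against 8.35 in GFP cells), were nearly level, and the sources used here do not say whether their probe sets see the transgene.

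The coactivators were both lower in fusion cells. Wwtr1 (probe set 17405365) read 5.78 in fusion cells against 8.44 in GFP cells, a difference of -2.66. A difference at least as negative was found for 1.67% of the 13516 genes. Yap1 (probe set 17523883) read 7.25 in fusion cells against 8.26 in GFP cells, a difference of -1.01 that barely reached 2-fold. A further probe set annotated to Yap1 (17514610) read 3.56 in fusion cells against 3.28 in GFP cells, under the floor in both, and the mean of both probe sets gave a difference of -0.36, within 2-fold. The lower level of Yap1 therefore rests on 1 of its 2 probe sets. The difference of Wwtr1 exceeded that of Yap1 by 1.66 on the log2 scale, so the 2 coactivators were lower to unequal degrees.

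The TEAD factors, which bring YAP and TAZ to DNA, differed from each other in how far they were lower. Tead3 (probe set 17342829) read 4.23 in fusion cells against 7.32 in GFP cells, a difference of -3.08, and 1.08% of genes had one at least as negative. Its value in fusion cells was close to the floor, where RMA compresses differences. Tead2 (probe set 17477734), a TEAD gene known for its expression in early embryos and stem cells, read 6.38 in fusion cells against 7.22 in GFP cells, a difference of -0.85 that stayed within 2-fold. Tead1 (probe set 17481936) read 8.17 in fusion cells against 7.92 in GFP cells, a difference of 0.24 in the opposite direction. Tead4, the family member required to form trophectoderm, read 6.41 in fusion cells against 6.71 in GFP cells, a difference of -0.30. Of the 4 TEAD genes, then, Tead3 alone passed 2-fold, and the spread from Tead3 to Tead1 was 3.33 on the log2 scale.

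The LATS kinases, which phosphorylate YAP and TAZ, had similar differences on either side of the 2-fold threshold. Lats1 (probe set 17231545) read 5.72 in fusion cells against 6.75 in GFP cells, a difference of -1.03. Lats2 (probe set 17307184), itself a target of YAP and TAZ and so part of a negative feedback, read 5.75 in fusion cells against 6.57 in GFP cells, a difference of -0.83. The 2 kinases were 0.20 apart, so that one is counted and the other not is a matter of the threshold. Differences at least as negative were found for 11.4% of genes in the case of Lats1 and for 14.7% in that of Lats2.

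The angiomotins ranged from the largest difference among the 10 genes to almost none. Amot (probe set 17545159), an X-linked gene, read 4.72 in fusion cells against 8.11 in GFP cells, a difference of -3.39. Among the same 13516 genes, 107 had a difference at least as negative, Amot included. Amotl2 (probe set 17520856), which like Lats2 is a known YAP and TAZ target, read 5.30 in fusion cells against 6.94 in GFP cells, a difference of -1.64. Amotl1 (probe set 17524028) read 6.53 in fusion cells against 6.66 in GFP cells, a difference of -0.13. Amot and Amotl1 were thus 3.26 apart on the log2 scale, with Amotl2 between them.

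**Figure D2:**
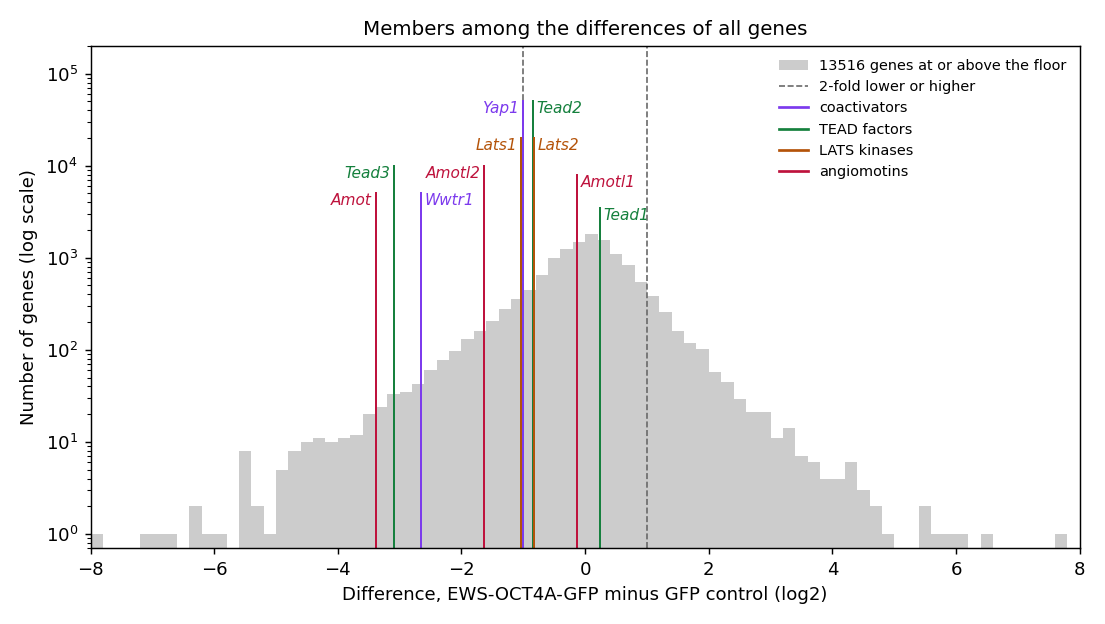
Number of genes (vertical axis, log scale) by their difference between fusion cells (EWS-OCT4A-GFP) and GFP cells (log2, horizontal axis) for the 13516 genes that reached the floor, with coloured lines at the 10 members and dashed lines at 2-fold. Amot, Tead3 and Wwtr1 lie in the lower tail, Lats1, Yap1, Tead2 and Lats2 lie within 0.2 of the threshold on its 2 sides, and Amotl1 and Tead1 lie in the bulk of genes.

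The count of 6 depended on where the threshold was set, because 4 genes lay near it. At a 3-fold threshold 4 of the 10 genes were lower (Amot, Tead3, Wwtr1 and Amotl2), against 5.82% of genes at or above the floor. At a 1.5-fold threshold 8 of the 10 were lower, all but Amotl1 and Tead1, against 20.6% of genes. At each of the 3 thresholds the share of members that were lower was above the share of all genes. The thresholds cut the same 10 differences, and the members were chosen with earlier results of these data known.

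Promoter windows of 9 of the 10 genes were at hand from RefSeq (build GRCm38.p6), each from 250 bases before to 50 bases after an annotated start, and Tead1 had none. They were searched on both strands for the core letters of the TEAD site, GGAATG or its reverse complement CATTCC. A match was present for 5 of the 9 genes, Yap1, Wwtr1, Tead3, Lats2 and Amotl2, and absent from the windows of Tead2, Lats1, Amot and Amotl1. Of all 32851 windows 14.7% held a match, and of all 27025 genes with a window 16.6% held one in at least 1 window. The 5 genes with a match had differences from -3.08 (Tead3) to -0.83 (Lats2), and the 4 without one had differences from -3.39 (Amot) to -0.13 (Amotl1). The windows of the 3 lower genes with a match and the largest differences are shown with the matches in capitals, beside that of Amot, which has none. They run 5′ to 3′ on the strand of the gene.
Tead3, chr17:28350551-28350850, minus strand: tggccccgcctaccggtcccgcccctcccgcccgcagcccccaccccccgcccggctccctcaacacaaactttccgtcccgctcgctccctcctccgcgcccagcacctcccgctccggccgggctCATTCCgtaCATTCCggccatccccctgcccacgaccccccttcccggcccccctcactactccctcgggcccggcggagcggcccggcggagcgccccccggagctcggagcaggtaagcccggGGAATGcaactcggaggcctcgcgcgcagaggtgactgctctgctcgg
Wwtr1, chr3:57575861-57576160, minus strand: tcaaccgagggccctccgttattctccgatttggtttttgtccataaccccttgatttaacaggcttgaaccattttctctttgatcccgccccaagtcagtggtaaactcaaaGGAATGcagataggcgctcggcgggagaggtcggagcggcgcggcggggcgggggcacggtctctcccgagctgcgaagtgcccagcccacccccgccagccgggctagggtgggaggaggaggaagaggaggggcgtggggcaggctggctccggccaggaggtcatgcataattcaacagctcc
Amotl2, chr9:102717554-102717853, plus strand: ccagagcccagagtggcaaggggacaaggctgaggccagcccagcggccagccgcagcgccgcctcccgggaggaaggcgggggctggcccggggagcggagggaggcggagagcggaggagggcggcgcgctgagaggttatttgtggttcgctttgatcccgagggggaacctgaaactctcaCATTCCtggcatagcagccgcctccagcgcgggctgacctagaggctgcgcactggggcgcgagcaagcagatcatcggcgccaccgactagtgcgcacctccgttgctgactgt
Amot, chrX:145487590-145487889, minus strand: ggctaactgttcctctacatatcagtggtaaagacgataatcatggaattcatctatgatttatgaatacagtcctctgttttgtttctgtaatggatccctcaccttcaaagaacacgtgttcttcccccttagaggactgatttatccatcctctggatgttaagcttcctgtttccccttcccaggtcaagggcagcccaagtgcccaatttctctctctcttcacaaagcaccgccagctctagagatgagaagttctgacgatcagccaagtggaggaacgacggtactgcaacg

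Tead3 had 3 annotated starts and 4 distinct matches over their windows, 3 of them in the window shown. Of these 3, a pair on the opposite strand stood 3 bases apart, beginning 123 and 114 bases before the start, and the other began at base 3 after it. Wwtr1 had 2 overlapping windows that share its match. In the window shown, this match began 136 bases before the annotated start, and that of Amotl2 began 65 bases before its own. The match of Yap1 began 141 bases before its start (chr9:8004547-8004846, minus strand) and that of Lats2 at base 5 after its start (chr14:57746074-57746373, minus strand). Searches for the octamer bound by OCT4 (ATGCAAAT) and for a GATA site (AGATAA) gave 0 matches in the windows of the 9 genes. The octamer was in 1.74% and the GATA site in 11.2% of all windows. By gene the shares were 1.97% and 12.7%, at which few or no matches would be found among 9 genes. The AP-2 site GCCNNNGGC was present for Yap1, Tead2, Tead3 and Lats2, and in 16.6% of all windows. By gene this was 4 of 9 members and 18.5% of all genes with a window. The fixed letters of this site are all G or C. The windows with a match held 61.3% (Tead2) to 74.0% (Yap1) G or C, where the median of all windows was 52.7%. The 9 genes also had 13 windows between them. The shares were not matched for base composition or number of windows, so the AP-2 count cannot be read as an excess. No match overlapped one of another motif in these windows. The matches describe letters in the sequence, and occupancy was not measured.

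Other genes of the pathway were also lower more often than higher. Of 48 listed genes 44 had a probe set of their own, 39 lay at or above the floor, and 12 of these were at least 2-fold lower and none was higher by as much, where all genes gave 11.9% lower and 9.31% higher. The 12 made up 30.8% of the 39. The median difference was -0.60 over the 39 genes. The trophectoderm markers given above were lower in the same sample, and their part in the differences of the pathway and target lists was not tested. Stk3, Taok1, Rassf1 and Csnk1d lacked a probe set with a single symbol and were not analysed here.

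The core of the cascade upstream of LATS stayed within 2-fold. Stk4, which encodes an MST kinase, read 6.87 in fusion cells against 7.68 in GFP cells, a difference of -0.81. The scaffold gene Sav1 differed by -0.10, and the LATS cofactor genes Mob1a and Mob1b by -0.40 and -0.46. All 4 measured core genes had differences below 0, and none was counted.

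Of the regulators further upstream, 3 of 11 genes that reached the floor, or 27.3%, were at least 2-fold lower, beside 11.9% of all genes. Wwc1, which encodes the LATS-activating scaffold KIBRA, read 4.53 in fusion cells against 5.94 in GFP cells, and its paralog Wwc2 read 5.91 in fusion cells against 7.86 in GFP cells. Their differences were -1.42 and -1.95. Frmd6, a FERM-domain gene chosen for mention after its value was seen, was the third, at -1.27. Nf2, which encodes the LATS activator Merlin and was also chosen after its value was seen, read 7.58 in fusion cells against 6.75 in GFP cells, a difference of 0.83, the highest of the pathway list. With Ajuba (0.74), which encodes a LIM-domain inhibitor of LATS, it was 1 of 2 listed genes that passed 1.5-fold in the higher direction, which 20.0% of all genes did.

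Genes of apical polarity and cell junctions, the sites where angiomotins and LATS act, had 5 of 9 members at least 2-fold lower, beside 11.9% of all genes. Patj, a tight junction scaffold gene, read 3.91 in fusion cells against 6.75 in GFP cells, and with the lower value set to the floor it was 6.29-fold lower. Dlg5, which encodes a scaffold of cell junctions, differed by -2.33 and the polarity gene Pard3 by -1.56. Cdh1, which encodes E-cadherin, read 8.63 in fusion cells against 10.46 in GFP cells, a difference of -1.84. The fifth was the polarity gene Crb3, at -1.38. Scrib (0.17) and Prkci (0.11) had differences slightly above 0.

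Limd1, another LIM-domain inhibitor of LATS, was lower by a difference of -2.23, unlike Ajuba and Wtip (0.09), which were within 2-fold. Among the VGLL cofactors, which bind TEAD factors in the nucleus, Vgll3 had the largest difference of the list. It read 4.11 in fusion cells against 8.46 in GFP cells, a difference of -4.35. The value in fusion cells was just above the floor, so the size of this difference is uncertain. Vgll1 read 3.35 in fusion cells, under the floor, against 4.94 in GFP cells, a difference of -1.59 that shrank to 1.80-fold with the lower value at the floor. Of the 8 measured genes of YAP binding and turnover, the casein kinase gene Csnk1e was the 1 gene past 2-fold, at -1.46. That is 12.5% of the group, near the 11.9% of all genes.

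**Figure D3:**
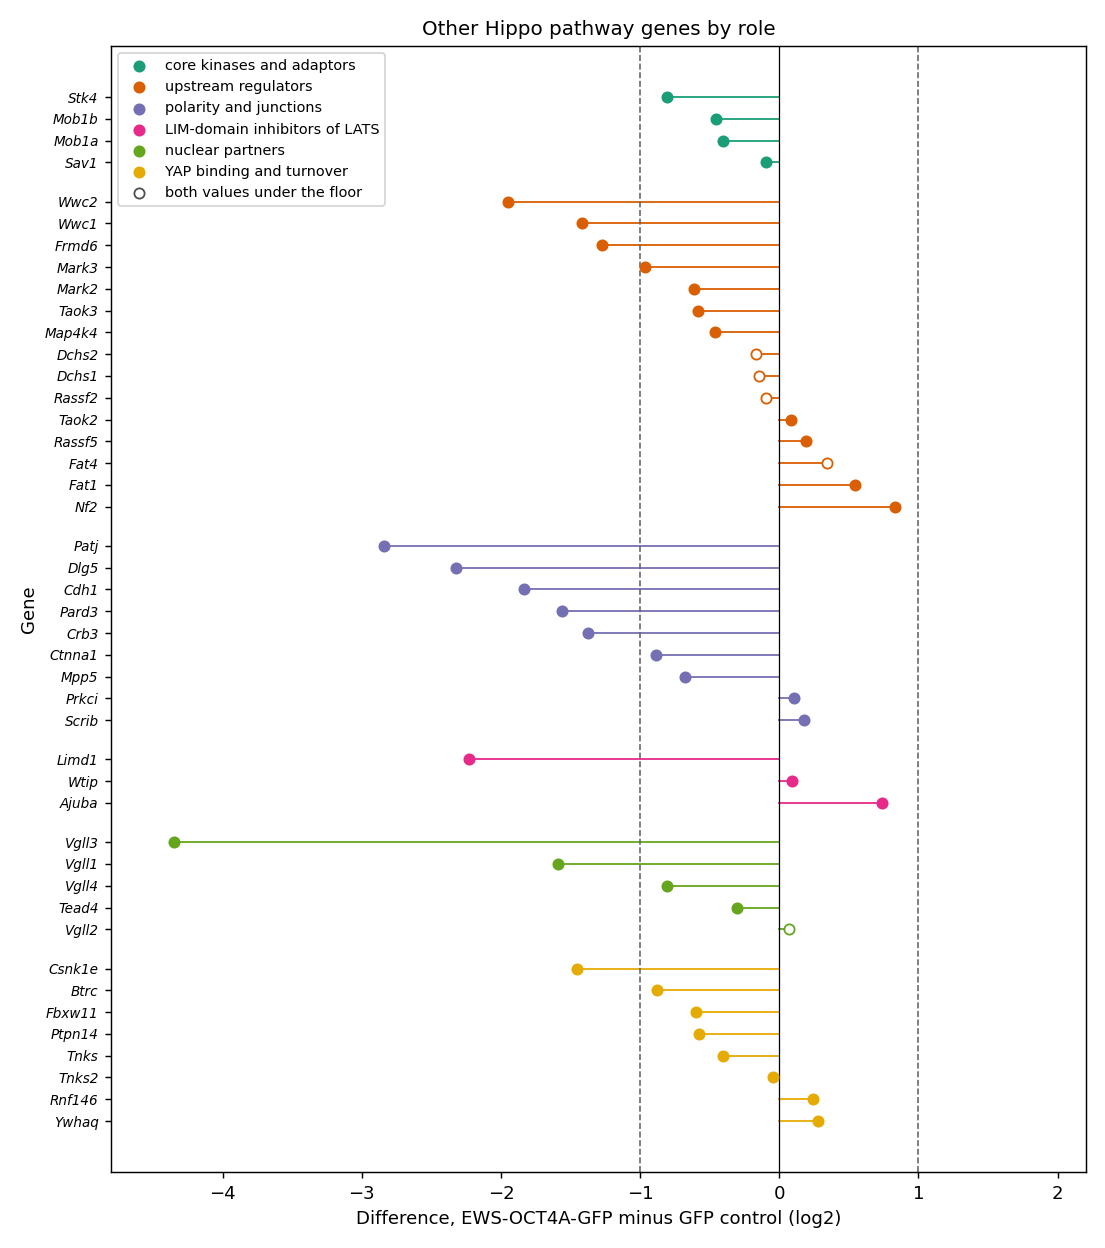
Difference between fusion cells (EWS-OCT4A-GFP) and GFP cells (log2, horizontal axis) for the 44 measured pathway genes other than the 10 members, grouped by role, with dashed lines at 2-fold and open points where both values lay under the floor. The 12 filled points beyond the left line include 5 of polarity and junctions, and no point passes the right line.

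Genes that YAP and TAZ activate in many human cancer cell types were examined as a readout list, a published signature in its mouse symbols. Of 22 listed genes 21 were measured, 17 lay at or above the floor, and 6 of these were at least 2-fold lower and 1 was higher by as much, where all genes gave 11.9% lower and 9.31% higher. The list holds Amotl2 and Lats2, and without these 2 members 5 of 15 were lower and 1 higher. The median difference over the 17 genes was -0.70, and -0.43 over all 21. Gadd45a lacked a probe set with a single symbol and was not analysed here.

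The 2 best-known targets of the list lay on opposite sides. Ccn1, which encodes the matricellular protein CYR61, read 5.45 in fusion cells against 7.77 in GFP cells, a difference of -2.32. Ccn2, which encodes its relative CTGF, read 6.76 in fusion cells against 4.78 in GFP cells, a difference of 1.99, or 3.96-fold higher. A further Ccn2 probe set, under the floor in both samples, differed by 0.61 in the same direction, and the mean over both by 1.30. The other lower genes were Myof (6.25 in fusion cells against 8.92 in GFP cells), which encodes the membrane protein myoferlin, F3 (a difference of -2.48), which encodes tissue factor, Crim1 (-1.62) and Dock5 (-1.23). Ankrd1, a further widely used target chosen for mention after its value was seen, read 3.69 in fusion cells against 4.12 in GFP cells. The first value lay under the floor and the second just above it.

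**Figure D4:**
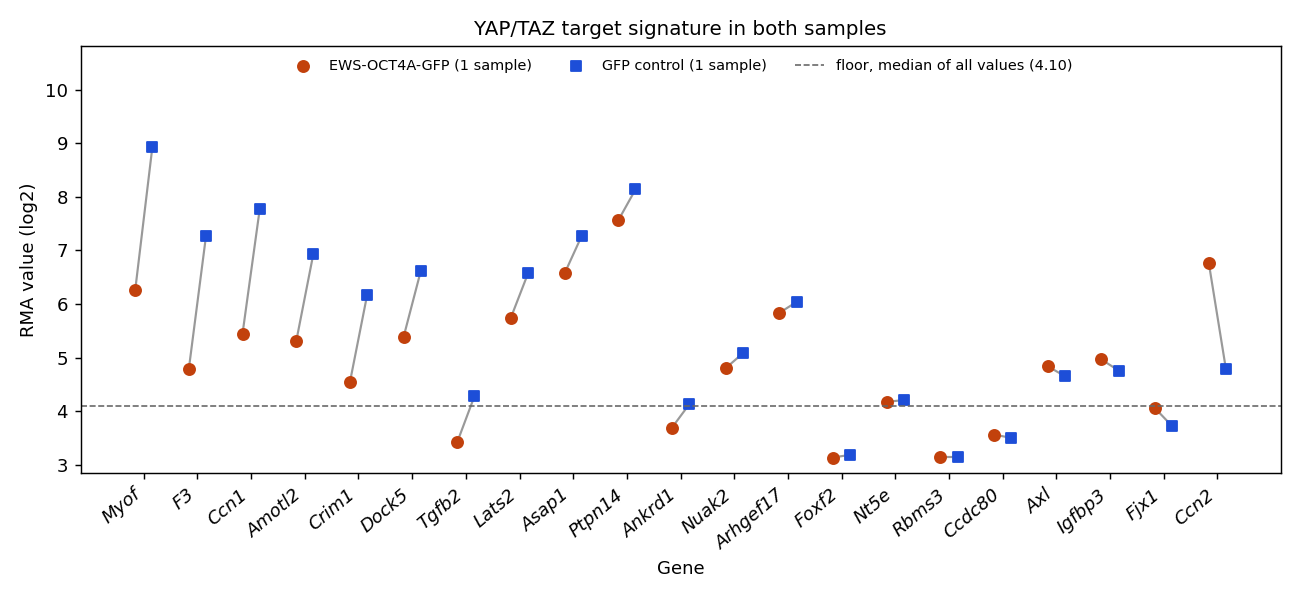
RMA values (log2, vertical axis) of the 21 measured genes of the YAP and TAZ signature in fusion cells (EWS-OCT4A-GFP, circles) and GFP cells (control, squares), ordered by difference, with a dashed line at the floor of 4.10. Myof, F3, Ccn1, Amotl2, Crim1 and Dock5 have circles at least 2-fold below their squares, and Ccn2 at the right end has the opposite order.

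In the early embryo TEAD4 and YAP activate Cdx2 and Gata3 in outer cells and hold Sox2 down there. Cdx2 read 5.54 in fusion cells against 6.09 in GFP cells, a difference of -0.55. Gata3 read 4.43 in fusion cells against 8.01 in GFP cells, a difference of -3.58, while a further probe set of the gene differed by -0.53 and the mean over both by -2.06. Sox2 read 9.87 in fusion cells against 5.50 in GFP cells, a difference of 4.37. Of these 3 genes Cdx2 was the one within 2-fold, as were the TEAD genes Tead4, Tead1 and Tead2. Cdx2 and Gata3 were already counted among the trophectoderm markers above, and Sox2 among the stem cell markers, so they are not a separate readout. The part of trophectoderm-like cells in their differences was not tested.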

How the data were processed

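The authors deposited 1 table of log2 values for 33793 probe sets with 1 column for each of 2 samples. Per the submitters' processing notes these are RMA summaries from Affymetrix Expression Console 1.1; the log base was taken as 2 from the method and the range of values, 0.618 to 13.0. RMA equalises the distributions of the arrays, so a shift of most transcripts would not be visible, and it compresses differences of low values. The series' design text speaks of duplicates, and the sources used here do not say whether a column holds 1 array or a mean. With so few arrays, precision is limited by their number.

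Names of probe sets came from the platform annotation, and probe sets with several symbols (1814) or none (8458) were not used. For genes with several probe sets the one with the highest mean stood for the gene. Older symbols in the lists were matched through RefSeq synonyms. Genes were described by size, with a 2-fold threshold and a floor at the median of all values; no test was made. Text names every member, 6 further genes of the fusion and of TEAD4 control, and the 10 pathway genes and 6 target genes with the largest absolute differences at or above the floor; others are said to be chosen later or are named to complete a count or a role. Members and lists were chosen with earlier results of these data known. Alternatives changed the threshold, the floor, the normalization (median centring, quantile, loess with span 0.3) and the treatment of several probe sets. The calculation was tested on simulated data. Python 3.11.15, numpy 2.4.6, pandas 2.3.3 and statsmodels 0.14.6 were used.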

Additional observations from a re-analysis of the deposited data

How the results depend on the processing

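No paired analysis was possible because there was 1 sample for each line, and for the same reason no replicate could be left out. Of 9 other settings, those of the threshold and the floor left each difference as it was, so no direction could change under them. The normalizations could change it, and the mean of probe sets could for genes with several probe sets. Under these none of the 32 named genes changed direction. Median centring and loess centring changed no 2-fold call among them; quantile normalization (-0.98) and the mean of its probe sets (-0.36) took Yap1 within 2-fold, leaving 5 of 10 members lower. Vgll1 was no longer counted with the floor at the 75th percentile, nor were Vgll1 and Wwc1 with a floor of 6. The pathway list then had 11 and 10 genes lower, and under loess centring it had 14. The share of all genes that were lower rose from 11.9% to 16.6%, 17.0% and 13.2% under these settings. The pathway list gave 20 genes lower and 2 higher at 1.5-fold and 7 lower at 3-fold. Of all genes, 20.6% were lower and 20.0% higher at 1.5-fold, and 5.82% were lower at 3-fold. The median of the target list was -0.43 with no floor, -1.23 with the floor at the 75th percentile and again at a log2 value of 6, where fewer genes remain by construction, and -0.57 without genes that are also members or pathway genes, an alternative chosen after seeing the data. Signal over background is unknown, which limits genes near the floor such as Tead3, Vgll1, Vgll3 and Ankrd1.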
